A study of Mus musculus with 6 samples.

Results

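The 4 capture probes followed here, on an array of miRNA probes, include those for both arms of miR-126, a miRNA of endothelial cells. The others are those for miR-143 and miR-145, paired miRNAs of smooth muscle cells and pericytes. A probe was taken if its name on the array, split at the slash, held mmu-miR-126-3p, mmu-miR-126-5p, mmu-miR-143 or mmu-miR-145. This gave 4 probes, each printed in 4 spots, of 597 probes that name a mouse miRNA, and each of the 4 also carries the names of its human and rat counterparts. The samples were retinal cells of B10.RⅢ mice aged 8 weeks, 3 harvests from naive mice and 3 from mice developing experimental autoimmune uveoretinitis (EAU), an inflammation of the retina driven by T cells, on day 14. Neither the number of mice per harvest nor the means of inducing EAU is stated in the labels. Total RNA of each harvest, 800 ng, carried the dye Hy3 and shared its array with a common pool of the samples carrying Hy5. P-values therefore measure the spread between harvests of 1 strain at 1 time point.

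MiR-126 is processed from an intron of Egfl7, a gene of endothelial cells, and both arms of its hairpin are found in vessels. Its 3p arm restrains inhibitors of signalling by vascular endothelial growth factor and is needed for intact vessels and for vessel growth in the retina. MiR-143 and miR-145 come from 1 transcript of mural cells, the contractile cells that wrap vessels, and support the contractile state there by holding down factors such as Klf4 and Klf5. The retina is rich in pericytes, and fibroblasts express miR-143 and miR-145 as well. Whether the signal of either pair came from the vessel wall was not tested.

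Of the 4 members, 1 had a mature sequence in the RefSeq table of the GRCm38.p6 build, and it is shown because miR-126-3p is the arm that the array could measure. It lies at chr2:26591402-26591423 on the plus strand. Capitals mark the seed, bases 2 to 8, which pairs with target mRNAs:
mmu-miR-126a-3p: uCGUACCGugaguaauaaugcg
The seed CGUACCG is held by 1 of 1738 mature miRNAs in that table, miR-126a-3p itself, so no family member with the same seed is listed. The hairpin at chr2:26591357-26591429, with the 3p arm in capitals, shows where the arm sits, at bases 46 to 67 of 73:
Mir126a hairpin: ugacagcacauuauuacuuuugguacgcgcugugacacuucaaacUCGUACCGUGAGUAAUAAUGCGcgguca
In the RefSeq gene table Mir126a overlaps Egfl7 and, on the opposite strand, Mir126b, while Mir143 and Mir145a both overlap Carmn, a long non-coding RNA.

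The arrays were dim. The median spot read between 56.2 and 94.8 scanner units in the sample channel, where the local background was 22 to 24. It read between 33.9 and 38.1 in the reference channel, where the local background was 29 to 30. EAU replicate 2 was the brightest array and EAU replicate 3 the dimmest in the sample channel. EAU replicate 3 also had the fewest mouse probes, 149 of 597, above the blanks in the reference channel, against 239 to 314 on the others. The blank level of an array was set 3 median absolute deviations over the median of its blank and negative-control spots. A probe counted as above it if at least 50% of its spots were, which held on all 6 arrays for 33.0% of mouse probes and on no array for 37.5%. The miRNAs that mark retinal neurons were measured: 3 of 3 photoreceptor miRNAs (miR-183, miR-96, miR-182) and both neuronal ones (miR-124, miR-9) were above the blanks on all 6 arrays. All naive arrays share a scan day that no EAU array has, and group and scan day therefore cannot be told apart.

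MiR-145 and miR-143 fell in EAU, and miR-126-3p and miR-126-5p did not pass the test. Values are log2(Hy3/Hy5) after background correction and loess normalization, compared by limma with p-values adjusted over 595 tested mouse probes. Of these, 12.9% passed an adjusted p of 0.05 in either direction, 8.74% as lower and 4.20% as higher in EAU. The groups did not overlap for 46.6% of them, with EAU the lower group for 29.6%, so a lack of overlap by itself is common on these arrays.

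MiR-145, which represses Klf4 and helps keep smooth muscle cells contractile, had log2 ratios of 0.46, 0.37 and 0.34 in naive replicates 1 to 3. In EAU replicates 1 to 3 the log2 ratios were 0.00, -0.09 and -0.08. Every EAU array was below every naive array. The mean went from 0.39 ± 0.06 to -0.06 ± 0.05 (SD, n = 3 each), a 1.36-fold decrease in the ratio (log2 difference -0.45, SE 0.04, 95% interval -0.55 to -0.35; limma adjusted p = 0.00702). By size of p it ranked 5 among the 595 probes, and by size of the decrease 23.

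MiR-143, encoded beside miR-145 and active on other targets in the same cells, had log2 ratios of 0.15, 0.18 and 0.22 in the naive replicates and of 0.02, -0.13 and -0.14 in the EAU replicates. The groups did not overlap. The mean went from 0.18 ± 0.03 to -0.08 ± 0.09 (SD, n = 3 each), a 1.20-fold decrease in the ratio (log2 difference -0.27, SE 0.05, 95% interval -0.39 to -0.14; limma adjusted p = 0.0291). Its rank was 43 by p and 43 by size of the decrease. The call of miR-143 held without EAU replicate 1 (adjusted p = 0.00926). It was lost on leaving out any other array, naive replicate 1, 2 or 3 or either of EAU replicates 2 and 3, with an adjusted p of 0.0670 to 0.0944. In a bulk sample, fewer mural cells and less of the miRNA per cell cannot be told apart, and neither can be told apart from scan day. The part of other cell types was not tested.

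**Figure D1:**
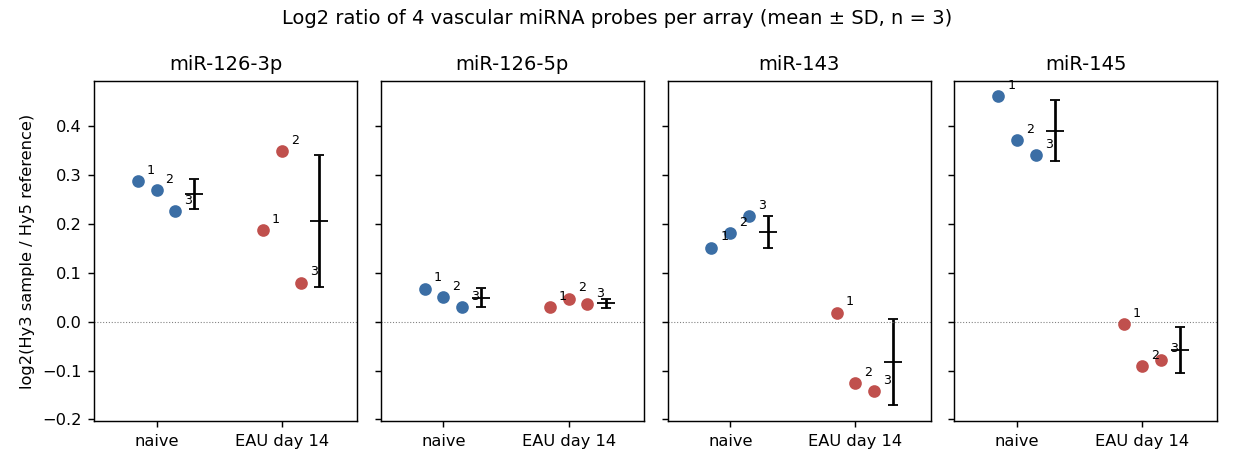
Log2 ratio of sample over reference for the 4 probes, 1 point per array with its replicate number, beside the mean and SD of each group (n = 3). For miR-145 and miR-143 the EAU points, at most 0.02, lie below all naive points, while for miR-126-3p the EAU points, from 0.08 to 0.35, span the naive ones, and all points of miR-126-5p lie between 0.03 and 0.07.

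Before normalization the decrease was not visible as a separation of the arrays. The raw sample signal of miR-145 was 300.3, 357.7 and 258.6 in the naive replicates and 214.9, 335.9 and 135.5 in the EAU replicates, in scanner units. The groups overlap, because EAU replicate 2, the brightest array, was above 2 of the 3 naive arrays. The raw signal of miR-143 was 148.4, 227.2 and 146.9 against 125.8, 244.2 and 121.5, and the highest value was again that of EAU replicate 2. Both probes were above the blanks in the sample channel on all 6 arrays, and none of their spots was saturated. In the reference channel, where the same pool was on every array, miR-145 read 53.6, 86.5 and 50.7 on the naive arrays and 51.5, 63.1 and 46.7 on the EAU arrays, not far above the local background of 29 to 30. MiR-143 read 43.7, 69.3 and 41.4 there on the naive arrays and 39.8, 57.4 and 47.9 on the EAU arrays. It was above the blanks of that channel on 5 of 6 arrays. The exception was EAU replicate 3, with 1 of 4 spots above, the array with the lowest log2 ratio of miR-143. That 1 spot had a log2 ratio of -0.57 and a local background of 120 in the sample channel. The other spots of miR-143 on this array had log2 ratios of 0.10, -0.06 and -0.03. The low value of miR-143 on EAU replicate 3 therefore rests on 1 spot of high background.

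**Figure D2:**
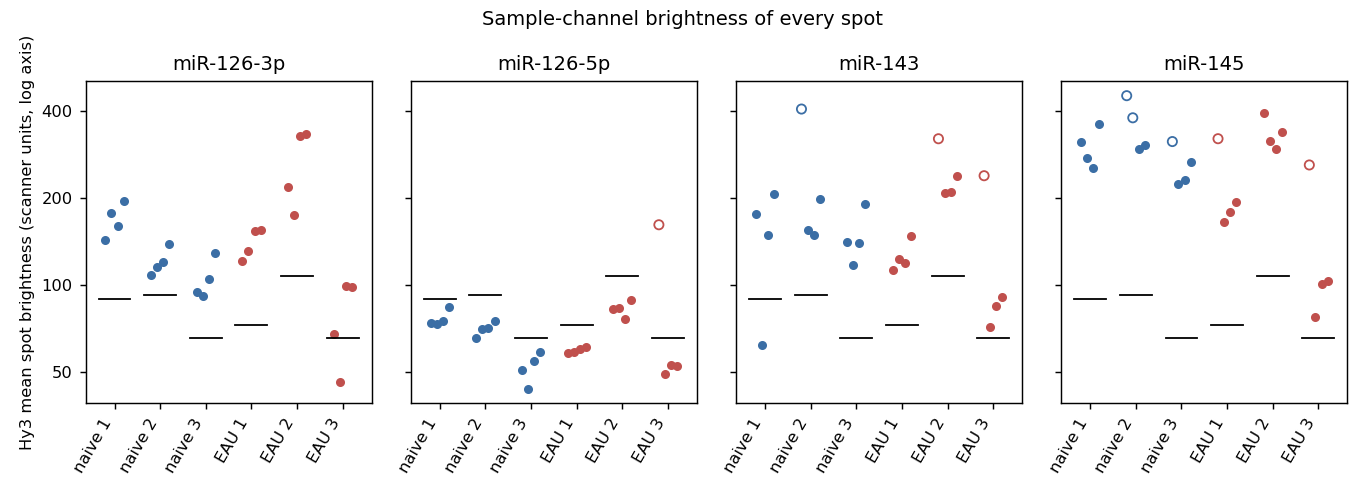
Sample-channel (Hy3) brightness of each of the 4 spots of a probe on each array, in scanner units on a log axis, with the blank level of that array as a black bar. Open circles are spots whose local background was over 2 times the array median. All spots of miR-145 are above the blanks, while for miR-126-5p the bars lie above all spots but 1.

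In the sample channel alone, after loess and quantile normalization of brightness across arrays, miR-145 was 7.44, 7.46 and 7.45 on the log2 scale in the naive replicates. It was 7.02, 6.94 and 6.74 in the EAU replicates. The difference was -0.55 (SE 0.08; limma adjusted p = 0.0157), past the threshold, as 5.71% of all probes were in that direction and channel. MiR-143 differed by -0.21 there (SE 0.07; limma adjusted p = 0.144) and did not pass, although its groups did not overlap, which held for 31.8% of probes. Without a second dye orientation a dye bias at a probe cannot be told apart from its level in this channel.

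The 2 decreases were also read at each of the 4 spot positions of a probe. For miR-145 the EAU arrays were below the naive arrays at each of the 4 spot positions, with differences of -0.71, -0.38, -0.33 and -0.37. For miR-143 they were below at 3 of 4 positions, with differences of -0.54, -0.14, -0.18 and -0.20, and the second position overlapped. The spots of a probe share an array and are not replicates of the condition, so their agreement adds no support. Averaged over spots, 46.6% of all 595 probes did not overlap, with EAU lower for 29.6%. The share at single positions was not computed. The first position of both probes had the largest difference, and it lay where local background was high on several arrays. Spots with a background over 2 times the array median were at that position for 4 of 5 of miR-145 and 3 of 3 of miR-143. Over all 4 members it was 8 of 9, of 96 spots in all. On naive replicate 2 the background there was 191 beside miR-145 and 183 beside miR-143, and on EAU replicate 3 it was 116 and 120, against an array median of 23. Without these spots, an alternative chosen after the backgrounds were seen, miR-145 differed by -0.38 (limma adjusted p = 0.0291) and miR-143 by -0.20 (limma adjusted p = 0.0372), both past the threshold.

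The passenger arm of the miR-145 hairpin, miR-145*, was the other product of the locus with a mouse probe among the lists below. Its log2 ratio was 0.00, 0.05 and 0.04 in the naive replicates and 0.18, 0.34 and 0.03 in the EAU replicates, so that the groups overlapped. It differed by 0.15 (SE 0.08; limma adjusted p = 0.221) and did not pass. The sign was opposite to that of miR-145 and was positive in 14 of 14 other settings, from 0.13 to 0.56. Some of these settings changed only which probes were tested or how the fit was made, and left the difference as it was. Within an array, miR-145 minus miR-145* was 0.46, 0.32 and 0.30 in naive and -0.19, -0.43 and -0.11 in EAU, a change of -0.60 between group means that was given no test.

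MiR-126-3p, the main arm of the endothelial hairpin, had log2 ratios of 0.29, 0.27 and 0.23 in the naive replicates and of 0.19, 0.35 and 0.08 in the EAU replicates. The EAU arrays held both the highest and the lowest value. The mean was 0.26 ± 0.03 in naive and 0.21 ± 0.14 in EAU (SD, n = 3 each; log2 difference -0.06, SE 0.07, 95% interval -0.23 to 0.12; limma adjusted p = 0.612). The interval leaves room for a decrease near that of miR-143. The raw sample signal was 169.1, 120.8 and 104.8 in naive and 140.6, 263.3 and 77.9 in EAU, again highest on EAU replicate 2 and lowest on EAU replicate 3. The spread of the EAU arrays moved with the brightness of the arrays, whose part in the result was not tested. The probe was above the blanks on all 6 arrays in the sample channel, but in the reference channel only on 1 naive and 2 EAU arrays. Its difference had no settled sign, as it was 0.11 with median centring, 0.18 with no normalization, 0.05 with loess fitted on bright spots and 0.01 without EAU replicate 3.

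MiR-126-5p, the other arm, was not measured above the blanks on any array. Its raw sample signal lay between 51.9 and 82.8, and 1 of its 24 spots exceeded the blank level, a spot on EAU replicate 3 that the scanner software marked as an outlier and that had a local background of 59. The log2 ratio was 0.07, 0.05 and 0.03 in naive and 0.03, 0.05 and 0.04 in EAU (log2 difference -0.01, SE 0.02; limma adjusted p = 0.684). The narrow interval of -0.06 to 0.03 describes 2 dim channels and bounds no change of the miRNA, since a probe under the blanks in both groups has only an upper limit.

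The mural pair was then set beside the endothelial one within each array. The mean of miR-143 and miR-145 minus the mean of the miR-126 arms was 0.13, 0.12 and 0.15 on the naive arrays and -0.10, -0.31 and -0.17 on the EAU arrays. Every EAU array was below every naive array, and the group means changed by -0.32. MiR-143 and miR-145 had each not overlapped by themselves, so this separation adds no support. Among single probes 46.6% of 595 did not overlap, and the share among differences of such pairs was not computed. Since miR-126-5p was under the blanks, the same difference was taken against miR-126-3p alone. It was 0.02, 0.01 and 0.05 in naive and -0.18, -0.46 and -0.19 in EAU, a change of -0.30. These values use members chosen with the results known and carry no test. Between the members of the pair, miR-145 minus miR-143 was 0.21 ± 0.09 in naive and 0.03 ± 0.04 in EAU (SD, n = 3 each), a change of -0.18.

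**Figure D3:**
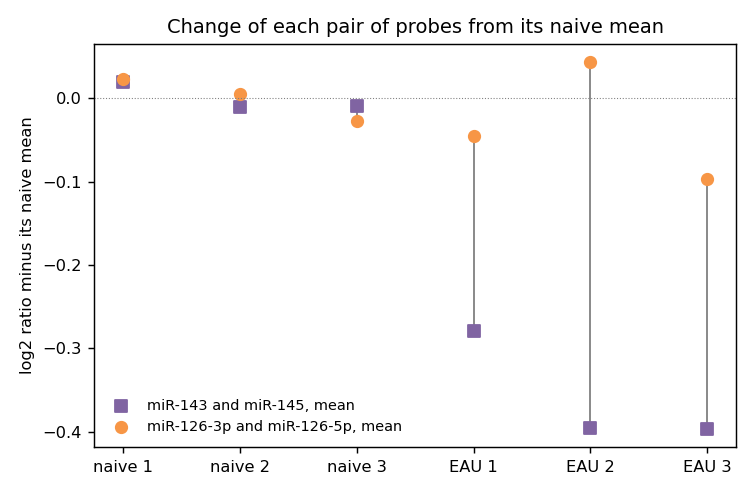
Mean log2 ratio of miR-143 and miR-145 (squares) and of the arms of miR-126 (circles) on each of the 6 arrays, each given as the change from its own naive mean. On the EAU arrays the squares lie at -0.28, -0.40 and -0.40, and the circles at -0.05, 0.04 and -0.10, all outside the naive range of -0.03 to 0.02 but closer to it than the squares. Each circle averages miR-126-3p with miR-126-5p, which was under the blanks on all 6 arrays and varied little, so a circle moves less than miR-126-3p. The log2 ratios of miR-126-3p alone were 0.29, 0.27 and 0.23 in naive and 0.19, 0.35 and 0.08 in EAU.

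The size and the call of the 2 decreases depended on the normalization. MiR-145 was lower in 14 of 14 other settings, between -0.26 and -0.75, and passed in 11. It also passed without any 1 of the 6 arrays in turn (adjusted p from 0.00945 to 0.0481). Without naive replicates 1, 2 and 3 in turn, 1.51%, 2.52% and 6.05% of probes passed, and without EAU replicates 1, 2 and 3, 13.0%, 10.4% and 1.18%. MiR-143 was lower in 14 of 14 settings, between -0.05 and -0.52, and passed in 6. Some of these settings left both differences exactly as in the main setting. They were the filter on the blank level, the probes of all species, outlier spots kept and the replicate block. The 3 settings in which miR-145 did not pass were median centring in place of loess (-0.41, limma adjusted p = 0.362), no normalization within the array (-0.34, adjusted p = 0.717) and loess fitted on spots bright in both channels (-0.26, adjusted p = 0.239). Its naive and EAU arrays overlapped in these 3 settings. The constant of 50 added to both channels in the background correction shrinks log2 ratios of dim probes. With a constant of 10, miR-145 differed by -0.72 and miR-143 by -0.46, both past the threshold (limma adjusted p = 0.00508 and 0.0377). In the authors' deposited table of ratios miR-145 was 1.49, 1.10 and 1.10 in the naive replicates and 0.737, 0.788 and 0.730 in the EAU replicates. Its log2 difference there was -0.70 (limma adjusted p = 0.0212), while miR-143 (-0.30, adjusted p = 0.326) did not pass. The share of all probes past the threshold differed as much between settings. It was 15.8% with no background correction, 16.5% with the constant of 10, 14.2% with outlier spots kept, 21.5% among probes above the blanks on at least 3 arrays and 13.9% in the deposited table. It was 10.6% in the sample channel alone, 7.90% with the median of spots, 7.39% without spots of high background, 6.89% with the scanner software's processed signals and 6.44% among the miRNA probes of all species. It was 4.20% with no normalization, 4.03% with loess on bright spots, and 0.336% both with median centring and with the replicate number as a block.

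**Figure D4:**
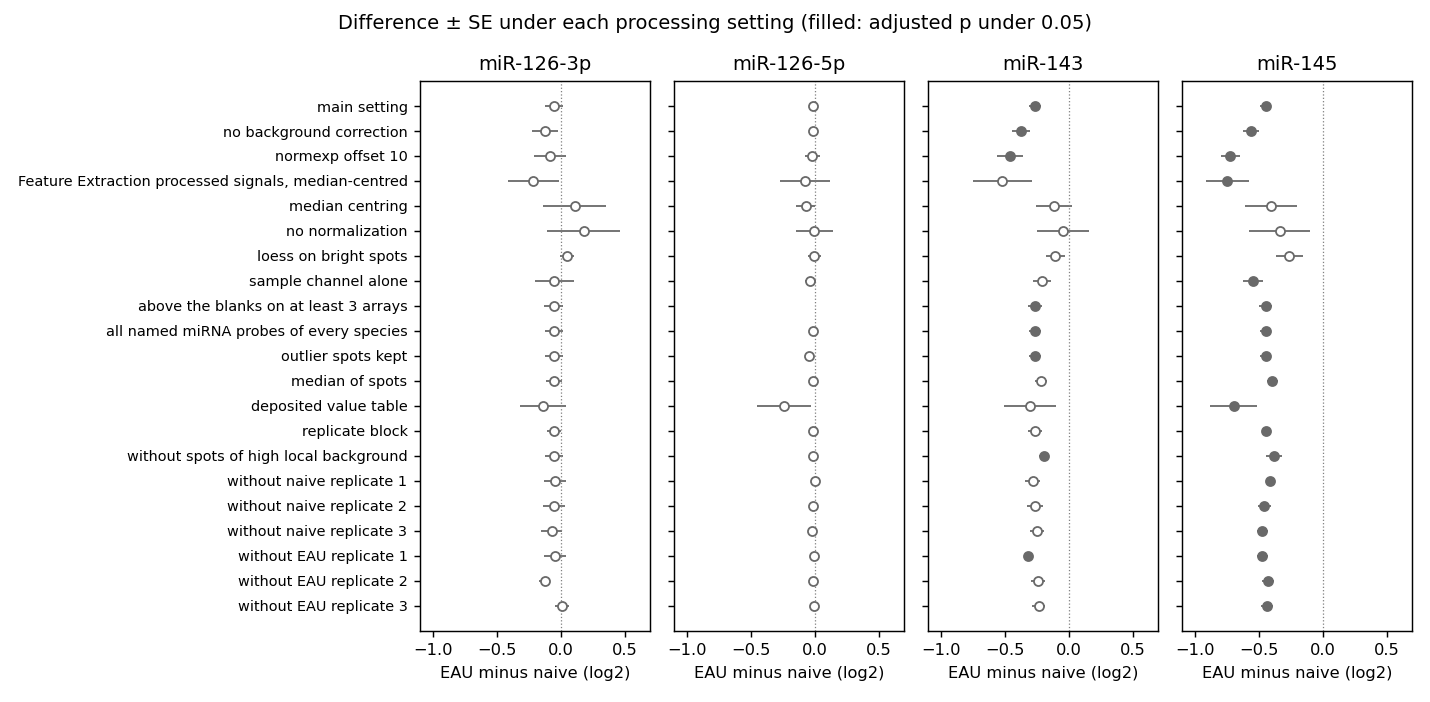
Difference between EAU and naive (log2, point) with its SE (line) for each probe under the main setting, each other setting and without each array in turn. Points for miR-145 lie left of 0 in every setting and are filled (adjusted p under 0.05) in all but 3, those of miR-143 lie left of 0 and are mostly open, and those of miR-126-3p fall on both sides of 0. MiR-126-5p has no point for the filter on the blank level, which it did not pass.

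**Figure D5:**
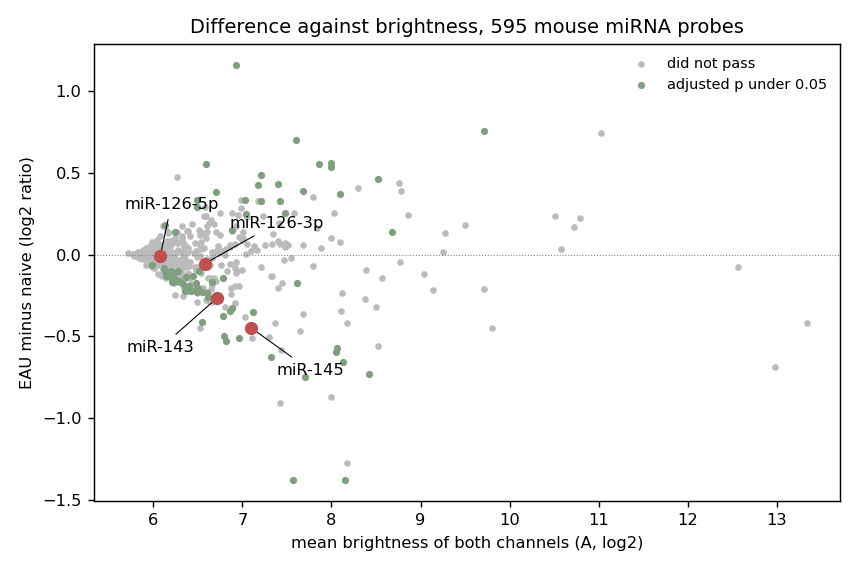
Difference between EAU and naive (log2 ratio) against the mean brightness of both channels (log2) for 595 mouse probes, with those past the threshold in green and the 4 vascular probes in red. MiR-145 (-0.45) and miR-143 (-0.27) lie below 0, and the miR-126 arms near 0 at -0.06 and -0.01.

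Other miRNAs of vessels were then listed. Of 12 further miRNAs linked to endothelial cells or angiogenesis, 3 fell, 9 did not pass and none rose. Of all 595 probes, 8.74% passed as lower and 4.20% as higher in EAU. The median difference of the list was -0.13, beside -0.01 over all 595 probes. The median was negative in every setting tried, but no member passed with median centring, no normalization, loess on bright spots, the processed signals of the scanner software or the replicate block. The 3 were miR-378 (-0.26, limma adjusted p = 0.0166), miR-210 (-0.23, adjusted p = 0.0324), which hypoxia induces, and miR-130a (-0.22, adjusted p = 0.0440). MiR-378 lost its call without naive replicate 1 or EAU replicate 3 (adjusted p = 0.0688 and 0.0659). MiR-210 and miR-130a lost theirs without any 1 array other than EAU replicate 1 (adjusted p between 0.0744 and 0.121). Of 14 other settings, miR-378 passed in 9, miR-210 in 6 and miR-130a in 5. MiR-296-5p (-0.17, adjusted p = 0.0804) came next.

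Of 8 further mural or mesenchymal miRNAs, 6 probes were tested, 1 rose, 5 did not pass and none fell. Over all 595 probes, 4.20% passed as higher and 8.74% as lower. The median of the list was -0.02. It turned positive with median centring, no normalization, loess on bright spots and the scanner software's processed signals. The same held with the filter on the blank level and in the deposited table. MiR-214, a miRNA of mesenchymal cells, rose by 0.25 on the log2 scale (limma adjusted p = 0.0271), and was above 0 in 14 of 14 other settings but passed in 7. Some of these settings, such as the filter on the blank level, the probes of all species and the replicate block, left its difference as it was. The call was lost with no background correction (adjusted p = 0.0616), in the sample channel alone (0.468), in the deposited table (0.0862), with the replicate block (0.0981), with median centring (0.297), with no normalization (0.338) and with loess on bright spots (0.110). It did not pass without any 1 of the naive arrays or without EAU replicate 3 (adjusted p from 0.0627 to 0.0938). The 3 other named members, miR-199b* (-0.04, adjusted p = 0.220), miR-145* (given above) and miR-199a-5p (-0.03, adjusted p = 0.295), did not pass.

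Markers of other cells differed between the same groups, where 8.74% of all 595 probes passed as lower and 4.20% as higher in EAU. Of 5 blood-lineage miRNAs, miR-142-3p was higher (0.56, limma adjusted p = 0.0166) and 4 did not pass, among them miR-142-5p (0.47, adjusted p = 0.0582), miR-155 (0.09) and miR-150 (-0.10, with a sign that turned in 4 of 14 other settings). The list mean ranged from -0.52 to -0.35 in naive and from -0.28 to -0.11 in EAU. MiR-142-3p passed in 13 of 14 other settings, the exception being the replicate block (adjusted p = 0.0654), and lost its call without naive replicate 2 (0.0612) or EAU replicate 3 (0.0712). MiR-142-5p passed in 8 of 14 other settings. Both were above the blanks on no naive and all 3 EAU arrays.

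Both pigment epithelium miRNAs were lower, miR-211 (-0.50, adjusted p = 0.00702) and miR-204 (-0.73, adjusted p = 0.0291), with list means of 0.44 to 0.54 in naive and -0.24 to 0.06 in EAU. MiR-211 passed in 11 of 14 other settings and without any 1 array, and miR-204 passed in 10 settings but, of the 6 arrays left out in turn, only without EAU replicate 1 (adjusted p up to 0.104 otherwise). Neither passed with median centring, no normalization or the replicate block. Beside the counts of this list and those that follow, 8.74% of all 595 probes passed as lower in the main setting. Of the photoreceptor miRNAs, 1 of 3 was lower, miR-183 (-1.38, adjusted p = 0.0483), while miR-96 (-0.91) and miR-182 (-1.28) did not pass, and the list mean lay between 0.75 and 0.80 in naive and between -1.05 and 0.06 in EAU. That count depended on the setting, with 3 of 3 lower in the deposited table and also by the sample channel alone. It was 0 of 3 with the median of spots, loess on bright spots, median centring, the replicate block, the probes of all species or without spots of high background. MiR-183 had no value on EAU replicate 1 after outlier spots were left out. The list mean of that array, the upper end of the EAU range, was therefore taken over miR-96 and miR-182 only. MiR-183 lost its call without naive replicate 1, 2 or 3 (adjusted p = 0.121, 0.153 and 0.109). Of the neuronal pair miR-9 was lower (-0.35, adjusted p = 0.0211) and miR-124 (-0.69, with a sign that turned in 2 of 14 other settings) did not pass, with list means of 0.02 to 0.30 and -0.93 to 0.22. MiR-124 had no value on EAU replicate 2 because its spots there were outliers, so the list mean of that array was the value of miR-9 alone. MiR-9 passed in 6 of 14 other settings, not in the sample channel alone (adjusted p = 0.0597), the deposited table (0.319) or with the replicate block (0.0654), and it passed only without EAU replicate 1 or 2 when 1 array was left out (up to 0.0855 otherwise). Of 3 erythroid miRNAs 1 passed, miR-486 (-0.23, adjusted p = 0.0463), which passed in 4 of 14 other settings and turned its sign in 3. With 1 array left out, miR-486 passed only without EAU replicate 1 (adjusted p up to 0.123 otherwise). MiR-451 (0.14) and miR-144 (0.01) did not pass, and the list mean was -0.17 to -0.12 in naive and -0.22 to -0.13 in EAU. None of 4 striated muscle miRNAs passed, with differences of -0.25 for miR-1, -0.29 for miR-133a, -0.15 for miR-133b and -0.14 for miR-206, and list means of -0.01 to 0.20 in naive and -0.20 to -0.06 in EAU. The part of these cell types in the decreases of miR-145 and miR-143 was not tested.

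The probes whose log2 ratios over the 6 arrays, each centred on its mean, were closest to those of a member were found by the root mean square gap. For miR-145 they were miR-211 (gap 0.05), miR-9 (0.06) and let-7f (0.08), against a spread of 0.23 of miR-145 itself. For miR-143 they were miR-130a (0.03), miR-210 (0.03) and miR-320 (0.04), against a spread of 0.14. For miR-126-3p they were miR-221 (0.03), the probe shared by miR-199a-3p and miR-199b (0.04) and miR-465c-5p (0.05), against 0.08. The nearest to miR-126-5p, miR-466f, miR-483 and miR-499, had gaps of at most 0.01, which for a probe under the blanks describes flat dim signals. All of these profiles share the arrays and their normalization.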

How the data were processed

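MiRNA was measured on 6 two-colour arrays, 3 naive and 3 EAU. The authors deposited 1 scanner file per array with the intensity of 8720 spots in 2 channels, which, per the file headers, come from Agilent Feature Extraction 9.1.3.1. A value table that the authors deposited holds 1 ratio per probe on a linear scale. Its normalization is not stated in the labels. Over 293 bright probes its log2 values and those of the processed signals, Hy3 over Hy5, had a median correlation of 0.936 across arrays. Its column medians ran from 0.769 to 0.886, and 36 of 1972 rows with a ratio above 32 on all arrays were left out.

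The mean spot intensity was corrected by normexp on the median local background (offset 50) and then loess-normalized within each array, control spots weighted 0 (limma 3.58.1, R 4.3.3). Outlier spots were left out and spots of a probe averaged. The flag for spots well above background, required on 3 arrays, was set for all 597 mouse probes, and 595 with at least 2 values per group were tested by lmFit and eBayes, group as the only term, two-sided, Benjamini-Hochberg threshold 0.05. The fit was also run on simulated data, with added changes larger than those of the members and no difference of scan day. That run does not bear on changes of the size seen here. The number of arrays limits the precision.

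Named are the 4 members, the up to 4 probes of each list with the smallest p, and the 3 probes closest to each member. The members and lists were chosen with earlier results of these data known. MiRNA sequences are RefSeq's.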

Additional observations from a re-analysis of the deposited data

How the results depend on the processing

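Of the 4 members, miR-145 and miR-143 kept their negative sign in all 14 other settings and on leaving out each array in turn. For both, the filter on the blank level, the probes of all species, outlier spots kept and the replicate block left the difference at its main value. MiR-126-5p kept a negative sign too, in the 13 settings that tested it. Its difference stayed at its main value with the probes of all species, with the replicate block and without spots of high background. The sign of miR-126-3p turned with median centring (0.11), no normalization (0.18), loess on bright spots (0.047) and without EAU replicate 3 (0.0074), and its values without 1 array ran from -0.13 to 0.01. MiR-145 lost its call with median centring (-0.41), no normalization (-0.34) and loess on bright spots (-0.26). MiR-143 lost it in these 3 settings (-0.12, -0.047 and -0.11), with the processed signals of the scanner software (-0.52), in the sample channel alone (-0.21), with the median of spots (-0.22), in the deposited table (-0.30) and with the replicate number as a block (-0.27, adjusted p = 0.111). Its values without 1 array ran from -0.32 to -0.24. The difference of the pair means, -0.32, was -0.40 with no background correction, -0.54 with an offset of 10, -0.49 with the processed signals and -0.21 with loess on bright spots. The cause of these shifts was not tested.

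The 77 mouse probes past the threshold (25 higher, 52 lower) became 41 with the processed signals (26 higher, 15 lower), 2 with median centring (1 and 1), 25 with no normalization (21 and 4), 24 with loess on bright spots (17 and 7), 47 with the median of spots (21 and 26) and 44 without spots of high local background (20 and 24), a setting chosen after seeing the data. The deposited table gave 82 (42 and 40) and the sample channel alone 63 (29 and 34). Leaving out 1 array gave between 7 (without EAU replicate 3) and 77, with 9, 15 and 36 without naive replicate 1, 2 and 3. The replicate block left 2 calls, and under it miR-145 still passed (adjusted p = 0.0325). The labels name no source that arrays of the same number share. Deviations from the group mean of same-numbered arrays correlated at 0.192, -0.152 and 0.290 over 592 probes. Naive replicates 1 and 3 correlated best with their own number, and naive replicate 2 with EAU replicate 1 (0.300). Deviations centred within so few arrays are not independent, so these correlations cannot decide whether the numbers pair the arrays. Slide could not be fitted as a block, since each array had its own. The dimness of both channels limits what miR-126-5p can show.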
